A study of Mus musculus with 72 samples.

Results

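LAM-HTGTS libraries with a bait double-strand break (DSB) on chromosome 8 were compared between cells treated with aphidicolin plus ART558 (AphART558, 3 libraries) and cells treated with ART558 alone (3 libraries). These 6 libraries, chosen by their labels from the 72 samples given here, came from the NestinCre+ Xrcc4-/-p53-/- line Nxp010, a neural progenitor cell (NPC) culture derived from mouse embryonic stem (ES) cells. All 6 libraries carry both deletions and the inhibitor, so aphidicolin is the only labelled difference. ART558 was given at 5 µM for 72 h and then at 2.5 µM for 24 h, and aphidicolin at 0.5 µM for 72 h and then at 0.25 µM for 24 h, while the cells were cultured for 96 h after nucleofection with the Cas9 and guide plasmid. The cells are of 1 line. The study describes a gain of chromosome 8 in a subclone of untreated cells that was no longer seen after aphidicolin with ART558, and a loss of chromosome 6 in a subclone, so the copy number of a bait chromosome may differ between treatments. As the background without the inhibitor, 3 DMSO and 3 aphidicolin (Aph) libraries of the same bait were measured in the same way, on a sequencing run of their own.

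Aphidicolin inhibits the replicative DNA polymerases and slows replication forks. In neural progenitor cells this stress leaves recurrent DNA break clusters (RDCs), many of which lie in long, transcribed genes, in late-replicating constant timing regions (CTRs) or in timing transition regions (TTRs), where replication passes from early to late. Xrcc4 is the partner of DNA ligase IV in non-homologous end joining, and without it breaks are joined by other routes. One of these uses polymerase theta (Pol θ), which aligns short stretches of identical bases, called micro-homology, and extends from them. ART558 inhibits this polymerase activity. In LAM-HTGTS, reads start at a primer beside the Cas9 cut and run through the bait end into the genomic sequence it was joined to, which is called the prey. The comparison asks what aphidicolin adds once Pol θ polymerase activity is inhibited.

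The guide and the first bases on the far side of the break are shown because they set the cut and the sequence that deletions join to. Sequences are from the RefSeq assembly GRCm38.p6 (mm10). The guide lies on the minus strand at chr8:59477701-59477720, with the protospacer-adjacent motif (PAM) in capitals. The bait is the 129 bases between the outer edge of the nested primer and the cut. The second sequence is chr8:59477704-59477763 on the plus strand. The cut lies in no annotated gene, and the distance to the closest gene that codes for a protein, *BC030500*, is 563405 bp.
guide: gtcgaccatatgctaatcttAGG
beyond the break: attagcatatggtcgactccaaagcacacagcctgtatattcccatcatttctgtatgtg

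The libraries differed in depth. The ART558 libraries held 2370, 3166 and 133 junctions (replicates 1, 2 and 3), and the AphART558 libraries held 949, 8516 and 7036. ART558 replicate 3 and AphART558 replicate 1 therefore fall under 1000 junctions, and the main results are given with and without them. Read names place the ART558 libraries and AphART558 replicate 1 on 1 sequencing run and AphART558 replicates 2 and 3 on another. Among the larger libraries, the treatment and the run cannot be told apart. Within the shared run, only AphART558 replicate 1 can be set against the 3 ART558 libraries. More than 1 Mb from the break and outside the recurrent prey sites described last, it had 14 junctions of identical position and orientation in common with ART558 replicate 1, which is 4.84% of its 289 distinct junctions, whereas it shared 0 with each other library of the 6. The part of these in the results was not tested, and the limits give the main values without AphART558 replicate 1. The labels do not say whether replicates were separate cultures, so p-values measure the spread between libraries, which may be technical. With 3 against 3 libraries the two-sided exact permutation test cannot go below p = 0.1, and with 2 against 2 it cannot go below p = 0.333, so no difference between these groups at this bait alone can pass a threshold of 0.05.

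Junctions to other chromosomes made up a larger share with aphidicolin, but the groups overlapped. The shares were 31.6%, 43.5% and 21.1% in ART558 replicates 1 to 3 and 35.7%, 53.6% and 56.3% in AphART558. AphART558 replicate 1 lay between ART558 replicates 1 and 2. The means were 48.6% ± 11.2 in AphART558 and 32.1% ± 11.2 in ART558 (SD, n = 3 libraries each), a difference of 16.5 percentage points (exact permutation p = 0.2). In the larger libraries alone the means were 55% and 37.6% (n = 2 each). The share within 1 Mb of the break was 46.5% ± 11.4 in AphART558 and 65.8% ± 12.8 in ART558 (exact permutation p = 0.2, n = 3 each). With the chromosome 6 and 12 baits added, the difference was 10.8 percentage points for other chromosomes (exact permutation p = 0.0358, adjusted p = 0.268) and -13.2 within 1 Mb (exact permutation p = 0.0178, adjusted p = 0.266), neither of which passed after adjustment. In the control libraries the share on other chromosomes was 6.81% in DMSO and 17.9% in Aph, below every ART558 and AphART558 library.

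Deletions of up to 200 bp, in which the bait end is joined in its own direction to sequence just beyond the break, were less frequent in AphART558. They made up 31.1%, 22.7% and 34.6% of the ART558 libraries and 20.5%, 9.22% and 8.68% of the AphART558 libraries. The groups did not overlap, and AphART558 replicate 1 was close to ART558 replicate 2. The means were 12.8% ± 6.70 and 29.4% ± 6.12 (SD, n = 3 each), and the exact permutation p was 0.1, the smallest possible. The larger libraries alone gave 8.95% and 26.9%, and DMSO and Aph gave 15.6% and 11.2%.

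Deletions of 200 bp to 10 kb were the main class without the inhibitor, at 55.7% of DMSO and 35.6% of Aph junctions. They made up 15.8%, 12.2% and 4.51% of the ART558 libraries and 9.38%, 6.49% and 6.30% of the AphART558 libraries. ART558 replicate 3 was the lowest of the 6, so that the groups overlapped. The median distance of these deletions was 1629 bp in AphART558 and 735 bp in ART558 (exact permutation p = 0.1, n = 3 each), where the median of ART558 replicate 3 comes from 6 junctions, and in the larger libraries it was 1854.0 and 1001.0 bp. Junctions of the bait chromosome more than 1 Mb away made up 3.04%, 3.22% and 0% in ART558, where replicate 3 had 0 of 133 junctions (95% Wilson upper bound 2.81%), and 4.64%, 5.20% and 4.97% in AphART558. These shares did not overlap, with means of 2.09% ± 1.81 and 4.94% ± 0.285 (exact permutation p = 0.1, n = 3 each), and of 3.13% and 5.09% in the larger libraries. ART558 replicate 3 also stood apart by 25.6% of bait-side junctions in direct orientation, against 1.99% to 5.90% in the other 5 libraries.

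**Figure D1:**
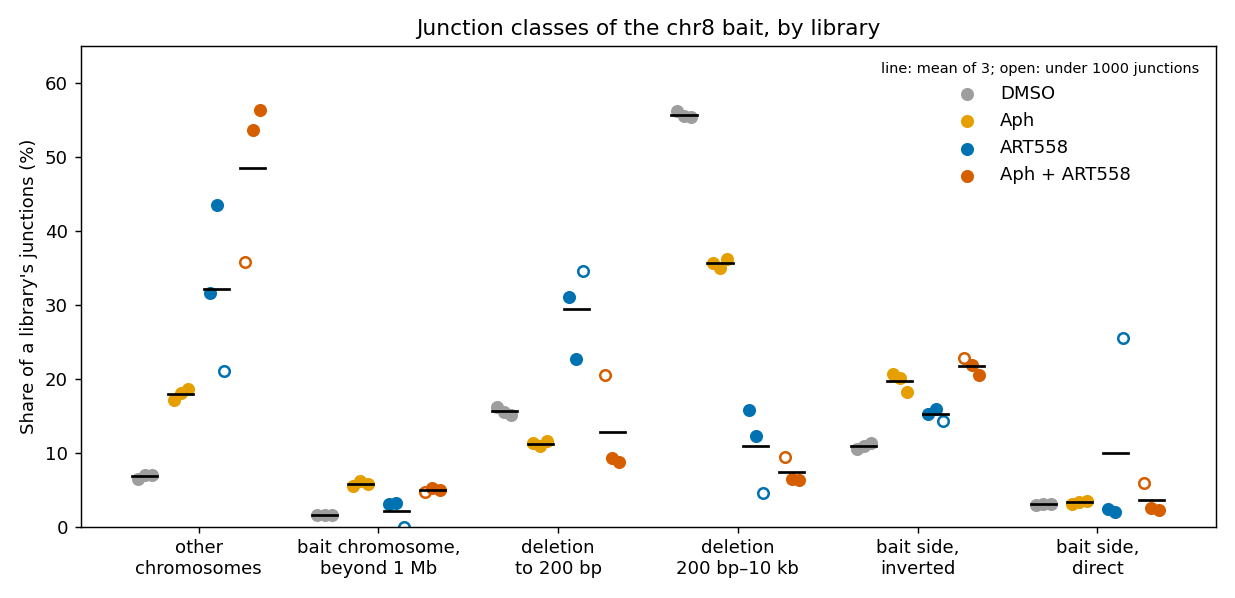
Junction classes of the chr8 bait as a share of each library's junctions (%), with 1 point per library, a line at the mean of 3 libraries, and open points for the libraries of under 1000 junctions. Deletions to 200 bp lie between 8.68% and 20.5% in AphART558 and between 22.7% and 34.6% in ART558, while shares on other chromosomes overlap.

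Bait-side inverted junctions were more frequent in AphART558 and lay farther from the break. In this class the prey lies on the primer side of the break, within 1 Mb, and is joined in reverse orientation. The shares were 15.3%, 15.9% and 14.3% in ART558 and 22.9%, 21.8% and 20.4% in AphART558. The lowest AphART558 library was above the highest ART558 library, and the library that shares the run with ART558 was the highest of the 6. The means were 21.7% ± 1.22 in AphART558 and 15.2% ± 0.823 in ART558 (SD, n = 3 each), a difference of 6.55 percentage points (exact permutation p = 0.1). The larger libraries alone had means of 21.1% and 15.6%.

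The distance of these junctions from the break had a median of 1169.5, 1153.5 and 1497.0 bp in the ART558 libraries and 2411.0, 2517.0 and 2440.0 bp in the AphART558 libraries. Every AphART558 median exceeded every ART558 median, including that of AphART558 replicate 1 within the shared run. The mean of the medians was 2456 ± 54.8 bp against 1273 ± 194 bp (SD, n = 3 each; exact permutation p = 0.1), and 2478.5 against 1161.5 bp in the larger libraries. Split by distance, the inverted junctions within 1 kb made up 4.78% of AphART558 and 6.76% of ART558 libraries (exact permutation p = 0.2, n = 3 each). Those at 1 to 5 kb made up 11.5% and 7.53%, and did not overlap between groups. Beyond 5 kb the shares were 5.69%, 5.64% and 4.99% in AphART558 and 1.43%, 1.17% and 0% in ART558. The 0% of ART558 replicate 3 stands for 0 of its 133 junctions, of which 19 were of this class.

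The same measures of bait-side inverted junctions in the libraries without the inhibitor were set beside these. Their median distance was 967 ± 51.7 bp in DMSO and 2409 ± 121 bp in Aph (SD, n = 3 each), and they made up 10.9% and 19.6% of the junctions. The difference that aphidicolin made to the median distance was 1183 bp with ART558 and 1442 bp without it. For the share it was 6.55 percentage points with ART558 and 8.73 without it. The permutation within inhibitor levels assumes no aphidicolin difference at either level, so it gives no test of whether these differences are unequal.

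Over 3 baits, on chromosomes 6, 8 and 12, aphidicolin on top of ART558 raised the median distance of bait-side inverted junctions by 1000 bp (999.9 bp; two-sided exact permutation within baits, p = 0.00025, the smallest that 8000 relabelings can give; adjusted p = 0.000625 over the 5 measures added after seeing the data). The 6 libraries of the chromosome 6 bait share 1 run, and their medians were 2460 ± 53 bp in AphART558 and 1449 ± 155 bp in ART558 (SD, n = 3 each). For chromosome 12 the values were 1985 ± 57.5 bp and 1179 ± 43.9 bp, over 2 runs that each hold 1 treatment. The share of bait-side inverted junctions rose by 5.31 percentage points over the 3 baits (exact permutation p = 0.006, adjusted p = 0.006), although the groups of the chromosome 6 bait overlapped (17.8% ± 4.16 and 13.9% ± 6.86, n = 3 each). Deletions of up to 200 bp fell by 10.9 percentage points (exact permutation p = 0.00125, adjusted p = 0.00156). At chromosome 6 these shares also overlapped, with 23.1%, 10.4% and 20.8% in ART558 and 13.1%, 12.4% and 12.2% in AphART558 (exact permutation p = 0.4, n = 3 each).

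Junctions on chromosome 8 itself lay more often at RDCs in AphART558. Of the 107 RDCs that have a CTR or TTR class in the study's supplement, to which all RDC results here are limited, 9 are on chromosome 8. Of the junctions more than 1 Mb from the break on this chromosome, 12 of 44, 90 of 443 and 76 of 350 lay in 1 Mb windows centred on RDCs in AphART558 replicates 1 to 3, and 6 of 72 and 12 of 102 in ART558 replicates 1 and 2. ART558 replicate 3 had no such junction and gave no value. The shares were thus 27.3%, 20.3% and 21.7% in AphART558 against 8.33% and 11.8% in ART558, without overlap (exact permutation p = 0.1, n = 3 and 2). In DMSO they were 7.65% to 10.497% and in Aph 26.3% to 34.9%. Over the 3 baits the share of bait-chromosome junctions in RDC windows rose by 15.9 percentage points (exact permutation p = 0.0005, the smallest that 4000 relabelings can give). For chromosome 6 it was 41.8% ± 3.53 in AphART558 and 8.99% ± 2.02 in ART558, without overlap, and for chromosome 12 it was 5.38% ± 1.81 and 3.71% ± 1.298 (SD, n = 3 each; exact permutation p = 0.1 and 0.2).

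**Figure D2:**
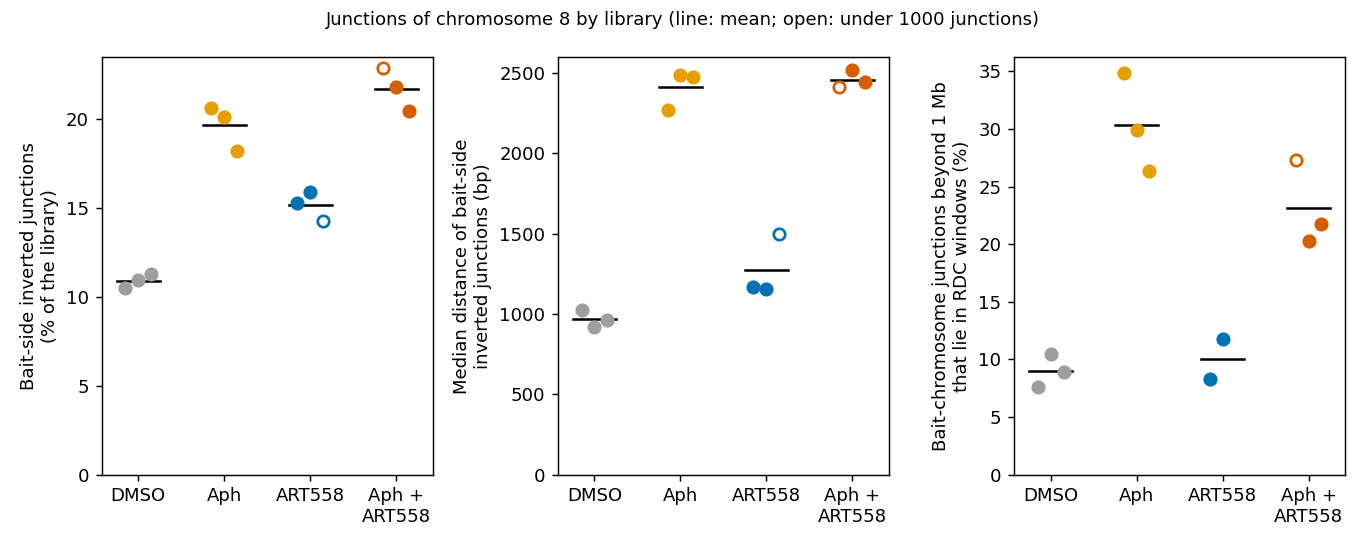
Chromosome 8 junctions by library: share of bait-side inverted junctions (% of the library), their median distance from the break (bp), and the share of bait-chromosome junctions beyond 1 Mb that lie in RDC windows (%), with 1 point per library, a line at the mean and open points under 1000 junctions. The AphART558 medians lie between 2411.0 and 2517.0 bp, and those of ART558 between 1153.5 and 1497.0 bp.

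The density of junctions at RDCs of other chromosomes was expressed as junctions per 1000 junctions on non-bait chromosomes per Mb (JPTM), over windows of 1 Mb. At the 39 CTR RDCs, the density depended on whether the smallest library was counted. It was 0.444, 0.410 and 3.66 JPTM in ART558 and 0.983, 0.562 and 0.802 JPTM in AphART558. The 3.66 of ART558 replicate 3 rests on 4 of its 28 junctions (95% Wilson interval 1.46 to 8.07), and the 3 AphART558 libraries lie above both other ART558 libraries. The means were 0.782 ± 0.211 JPTM in AphART558 and 1.51 ± 1.87 JPTM in ART558 (SD, n = 3 each), a difference of -0.723 (exact permutation p = 1.0). With only the larger libraries they were 0.682 and 0.427 JPTM, and the difference of 0.255 had the opposite sign. The sign also turned in narrower windows of 0.5 Mb, where the difference was 0.727 (exact permutation p = 0.1).

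Within the shared run, the 0.983 JPTM of AphART558 replicate 1 came from 13 of 339 junctions (95% Wilson interval 0.578 to 1.65), and its interval overlaps those of ART558 replicates 1 (0.260 to 0.755) and 2 (0.271 to 0.617). In Aph without the inhibitor the CTR density was 1.25 ± 0.0462 JPTM, and in DMSO 0.330 ± 0.183 JPTM (SD, n = 3 each). Over the 3 baits the aphidicolin difference at CTR RDCs was -0.125 JPTM (exact permutation p = 1.0 with 8000 relabelings, n = 3 per group and bait). Leaving out the libraries of under 1000 junctions made it 0.201 JPTM (exact permutation p = 0.0025, not adjusted). The treatment and the run then cannot be told apart at chromosomes 8 and 12. Chromosome 6, whose libraries share 1 run, contributed a difference of 0.126 JPTM (exact permutation p = 0.3). Chromosome 12 contributed 0.223 JPTM (exact permutation p = 0.1), both with all libraries.

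At the 59 TTR RDCs the densities were 0.633, 0.197 and 0 JPTM in ART558 and 0.60, 0.520 and 0.483 JPTM in AphART558. The larger ART558 libraries lay on either side of the AphART558 libraries, with ART558 replicate 1 the highest of the 6. The means were 0.534 ± 0.0597 and 0.277 ± 0.324 JPTM (SD, n = 3 each; exact permutation p = 0.4). In the larger libraries they were 0.502 and 0.415 JPTM, and the difference shrank from 0.258 to 0.0867. The 0 of ART558 replicate 3 was 0 of 28 junctions, for which the 95% Wilson interval reaches 2.04 JPTM. Across the baits the difference was 0.0735 JPTM (exact permutation p = 0.364), with 0.258 at chromosome 8, -0.0266 at chromosome 6 and -0.0108 at chromosome 12.

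In 1422 random windows outside RDCs the libraries lay close together. These windows cover a large part of the genome, and the density is scaled to each library's own junctions on other chromosomes. Their closeness is therefore in part set by the scaling and gives no measure of the number of breaks. The density was 0.430, 0.443 and 0.452 JPTM in ART558 and 0.384, 0.425 and 0.432 JPTM in AphART558, with means of 0.442 ± 0.0109 and 0.414 ± 0.0261 JPTM (SD, n = 3 each; exact permutation p = 0.2). A second draw of random windows turned the sign of this difference, to 0.0841. The CTR density relative to the random windows, on the log2 scale, was 0.05, -0.11 and 3.02 in ART558 and 1.36, 0.40 and 0.89 in AphART558. Over the larger libraries the mean log2 ratio was 0.65 in AphART558 and -0.03 in ART558. In protein-coding genes lay 46.2% ± 1.51 of the other-chromosome junctions of AphART558 and 45.2% ± 1.75 of those of ART558 (exact permutation p = 0.5, n = 3 each). Both were below the 51.7% of DMSO and 54.5% of Aph. Within 2 kb of a transcription start site of such genes lay 1.77%, 7.87% and 7.92% in AphART558 and 5.07%, 6.61% and 0% in ART558. The AphART558 library of the shared run was below both larger ART558 libraries.

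**Figure D3:**
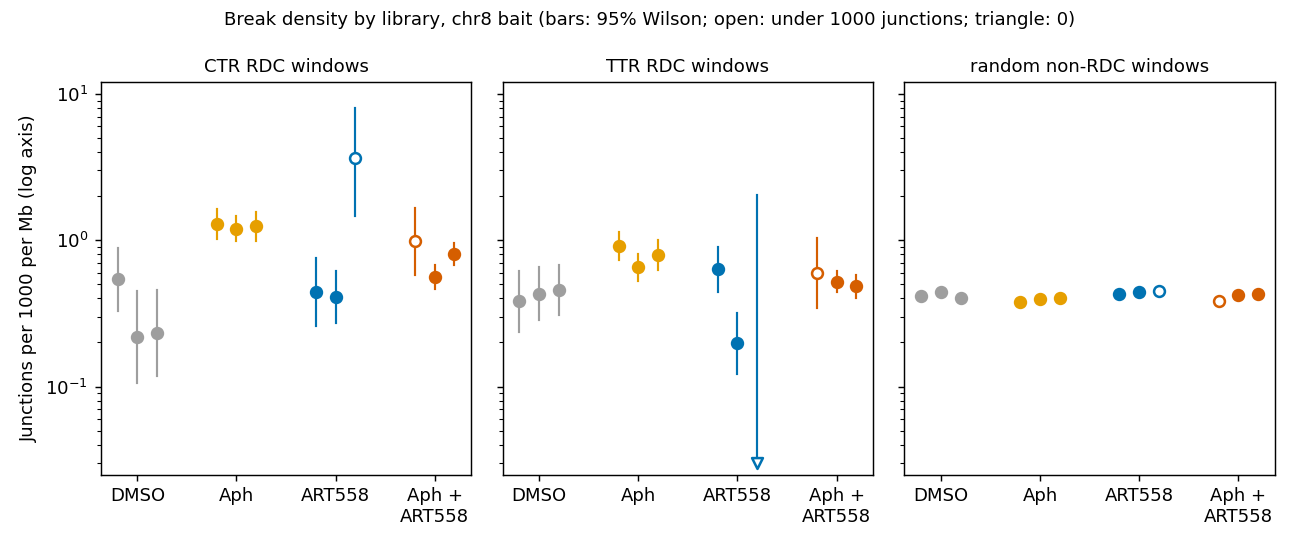
Junction density (junctions per 1000 per Mb, log axis) at CTR RDCs, TTR RDCs and random non-RDC windows for each chr8-bait library, with 95% Wilson intervals at the RDCs, open points under 1000 junctions and a triangle at the floor of the axis for 0. ART558 replicate 3 stands at 3.66 for CTR RDCs and at 0 for TTR RDCs, while the non-RDC densities of the 6 inhibitor-treated libraries run from 0.384 to 0.452.

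Taken RDC by RDC, the 98 RDCs off chromosome 8 held few junctions each. The mean density over 3 libraries was higher in AphART558 at 72 of 98 RDCs, against a background of 59.7% of all 1 Mb windows with a junction. The count of 72 had an exact permutation p of 0.4. In the 4 larger libraries, which hold 477 AphART558 and 79 ART558 junctions in these windows, the summed density was higher in AphART558 at 64 RDCs and lower at 34, against 54.0% higher among all windows. At 37 RDCs both larger AphART558 libraries were above both larger ART558 libraries, which is 37.8% of the RDCs against 27.6% of windows, and at 7 they were below both, which is 7.14% against 7.48%. At 46 RDCs the larger ART558 libraries had no junction, and each RDC had at least 1 in AphART558, which has more junctions. No test was made for single RDCs.

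Only 9 RDCs held at least 10 junctions in the larger libraries. Over all 98 RDCs these libraries held 477 AphART558 and 79 ART558 junctions, so the limit was reached mainly through AphART558. This favours RDCs that are high in AphART558, and the windows set beside them passed the same limit. The counts are therefore descriptions. The summed density was higher in AphART558 at 8 of them, against 65.7% of windows with as many junctions, and at 4 the libraries did not overlap, against 28.6%. *Prkg1*, which encodes a cGMP-dependent protein kinase, had the most junctions. It held 3, 1 and 0 junctions in ART558 and 0, 8 and 11 in AphART558, and its density was 1.88 and 2.23 JPTM in the larger libraries. The density differed little, since ART558 replicate 1 was the highest of the 6 libraries at 4.0 JPTM. Its 11 junctions of AphART558 replicate 3 fell at 9 positions over 522 kb of the window.

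*Nrg3*, a neuregulin ligand of the receptor tyrosine kinase ErbB4, held 0, 2 and 0 junctions in ART558 and 2, 7 and 7 in AphART558. The 2 of ART558 replicate 2 lay at 1 position, and those of each larger AphART558 library at 6. The larger libraries had 0 and 1.45 JPTM in ART558 and 1.53 and 1.77 JPTM in AphART558, without overlap but by a margin smaller than 1 junction of ART558 replicate 2. Its receptor gene *Erbb4* held 0, 1 and 0 junctions in ART558 and 0, 2 and 0 in AphART558, whereas 9 were found in Aph without the inhibitor. *Ctnna2*, the neuronal alpha-catenin that links cadherins to actin, held 0, 1 and 0 junctions in ART558 and 0, 5 and 8 in AphART558, at 0.470 and 1.52 JPTM.

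*Auts2*, which encodes a nuclear regulator of transcription in neurodevelopment, was uneven. It held 12 junctions in AphART558 replicate 2, at 11 positions over 854 kb, and 0 in AphART558 replicates 1 and 3. In ART558 it held 2, 0 and 0, and the density was 0.940 JPTM in ART558 and 1.41 JPTM in AphART558. Aph without the inhibitor held 18 *Auts2* junctions and DMSO 2. *Naaladl2*, a relative of the glutamate carboxypeptidases, held 5 junctions in AphART558 replicate 1, at 2 positions, and 2 and 3 in the larger AphART558 libraries. With 0, 2 and 0 in ART558, the larger libraries had 0.586 JPTM in AphART558 and 0.940 JPTM in ART558.

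Among genes with no junction in the ART558 libraries were *Mdga2*, an immunoglobulin protein that binds neuroligins, *Sgcd*, a sarcoglycan of the dystrophin complex, and *Cadm2*, an immunoglobulin adhesion molecule. *Mdga2* held 0, 4 and 6 junctions in AphART558, *Sgcd* 0, 3 and 7, and *Cadm2* 0, 7 and 2. Their densities in the larger AphART558 libraries were 1.17, 1.17 and 1.06 JPTM, and 0 junctions in ART558 allow up to 1.80 JPTM (95% Wilson), so no fold is given. *Lrp1b*, a lipoprotein receptor gene at a human common fragile site, held 0, 2 and 0 in ART558 and 0, 3 and 5 in AphART558. With 0.940 and 0.938 JPTM, it was the RDC of the 9 that was not higher in AphART558.

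By gene function, cell adhesion and axon guidance RDCs had a higher summed density in AphART558 at 10 of 13 members. Over all 98 RDCs this share was 65.3% and over all windows 54.0%, and the other groups have at most 10 members each. The adhesion genes held 78 AphART558 and 8 ART558 junctions in the larger libraries, and the ART558 libraries differed, with 0.718 JPTM in replicate 1 and 0.0559 JPTM in replicate 2. The AphART558 libraries had 0.607 and 0.815 JPTM, so that the groups overlapped. Their pooled density was 0.704 JPTM (95% Wilson interval 0.564 to 0.877) in AphART558 and 0.289 JPTM (0.147 to 0.570) in ART558. Genes of known human common fragile sites were higher at 7 of 8, with 53 and 5 junctions and 0.777 against 0.294 JPTM. The dystrophin complex was higher at 3 of 4, with 23 and 1 junctions. Transcription regulators were higher at 4 of 10, with 36 and 11 junctions and 0.422 against 0.517 JPTM. Glutamate receptors were higher at 3 of 4, synaptic scaffold and active zone genes at 6 of 8, receptor tyrosine phosphatases at 3 of 5, and adhesion GPCRs and protocadherins at 2 of 4 each. Neuregulin signalling was higher at 1 of 2, and CUB and sushi domain genes at 2 of 2, without a junction in ART558. The median difference was 0.351 JPTM for the adhesion genes, 0.291 for all 98 RDCs and 0.117 for all windows with a junction.

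The micro-homology lengths of the groups were close, and direct joins were the most frequent class in 5 of the 6 libraries. Among junctions more than 1 Mb from the break with 0 to 10 bp of micro-homology, direct joins made up 28.1%, 28.2% and 27.3% in ART558 and 28.2%, 31.0% and 30.7% in AphART558. AphART558 replicate 1 fell within the range of the ART558 libraries, and the other AphART558 libraries lay above it. The means were 29.9% ± 1.56 and 27.8% ± 0.483 (SD, n = 3 each), a difference of 2.12 percentage points (exact permutation p = 0.2). In the larger libraries they were 30.8% and 28.1%, without overlap, and among junctions within 1 Mb of the break the difference was -4.93. Over the 3 baits the direct joining share differed by -0.784 percentage points (exact permutation p = 0.604), and it was lower in AphART558 for both other baits.

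Micro-homology of 2 bp was found in 15.3%, 14.9% and 0% of ART558 junctions and 18.8%, 16.4% and 16.3% of AphART558 junctions. The groups did not overlap (exact permutation p = 0.1, n = 3 each), but the 0% stands for 0 of 22 junctions in ART558 replicate 3. The larger libraries had means of 16.3% and 15.1%. Across the baits the difference was 2.32 percentage points (exact permutation p = 0.189), with 0.598 at chromosome 6 and -0.732 at chromosome 12. With 1 bp the means were 21.8% ± 0.403 in AphART558 and 26.0% ± 5.36 in ART558, and with 5 to 10 bp they were 11.4% ± 0.258 and 15.4% ± 6.41 (exact permutation p = 0.4 for both, n = 3 each). These ART558 means are moved by the 22 junctions of replicate 3, and in the larger libraries the differences shrank from -4.21 to -1.08 for 1 bp and from -4.01 to -0.477 for 5 to 10 bp. The mean length was 1.96 ± 0.0712 bp in AphART558 and 2.08 ± 0.144 bp in ART558 (exact permutation p = 0.2). In the libraries without the inhibitor it was 2.62 ± 0.0633 bp in DMSO and 2.54 ± 0.0244 bp in Aph, and direct joins made up 13.9% and 16.3% (n = 3 each).

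**Figure D4:**
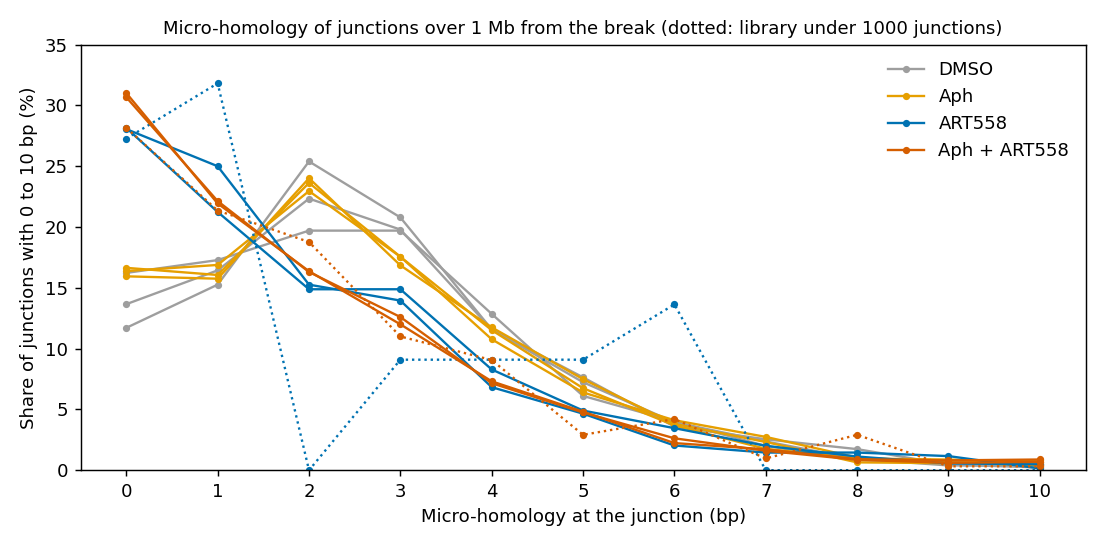
Share of junctions (%) with each length of micro-homology (0 to 10 bp) for each chr8-bait library, with dotted lines for libraries of under 1000 junctions. Direct joins, at 0 bp, make up 27.3% to 31.0% of the ART558 and AphART558 libraries, and 2 bp is the most frequent length in DMSO and Aph, equal to 3 bp in 1 DMSO library.

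Insertions were found at 15.6%, 15.1% and 21.4% of ART558 junctions more than 1 Mb away and at 18.5%, 17.1% and 15% of AphART558 junctions. The means were 17.4% ± 3.51 and 16.9% ± 1.77 (SD, n = 3 each; exact permutation p = 0.8). Insertions of at least 10 bp made up 5.96%, 4.53% and 7.14% in ART558 and 7.83%, 7.51% and 6.88% in AphART558, where the 7.14% stands for a library with 28 junctions. In DMSO and Aph these longer insertions made up 2.50% to 3.67%, below the 6 inhibitor-treated libraries.

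Loss of bases from the bait end also depended on the smaller libraries. The mean length of the bait was 90.4, 91.1 and 72.2 bp in ART558 and 90.6, 83.5 and 84.1 bp in AphART558, of 129 bp in full. The AphART558 library on the shared run lay between the larger ART558 libraries, and both larger AphART558 libraries lay below them. The means were 86.1 ± 3.94 bp and 84.6 ± 10.7 bp (SD, n = 3 each; exact permutation p = 0.9). The larger libraries alone had 83.8 bp in AphART558 and 90.7 bp in ART558, a difference of -6.96 bp. Over the 3 baits the difference was 1.46 bp (exact permutation p = 0.624), and without the smaller libraries it was -1.36 bp (exact permutation p = 0.328).

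The most frequent single end was the same in the larger libraries of both groups. It lay at a bait length of 103 bp and held 5.96% and 5.00% of ART558 and 5.57% and 5.17% of AphART558 junctions. The end at 63 bp held 4.50% and 2.84% in ART558, 3.08% and 2.92% in AphART558 and 0.114% to 0.731% in DMSO and Aph. A loss of over 60 bp was found at 27.4%, 25.2% and 53.6% of ART558 junctions and 30.5%, 36% and 34.9% of AphART558 junctions. At most 5 bp were lost at 11.3%, 9.74% and 3.57% of ART558 and 16.4%, 6.77% and 7.44% of AphART558 junctions. These shares include alignments that run past the break. Such alignments made up 8.88% in AphART558 replicate 1, and 5.35% and 3.31% in ART558 replicates 1 and 2. AphART558 replicate 1 thus had the highest share by this measure, and its share with long loss was above both larger ART558 libraries.

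**Figure D5:**
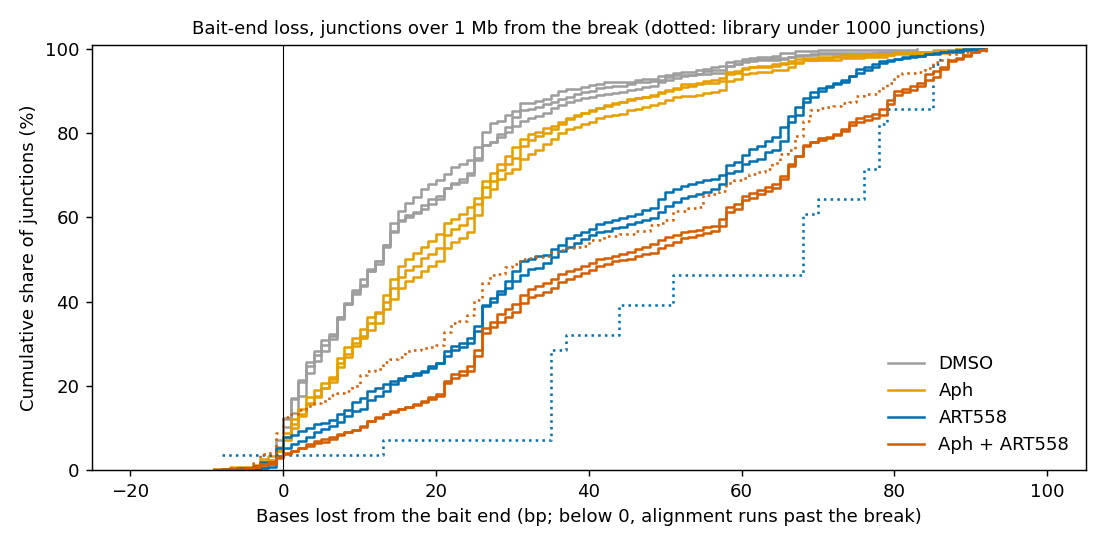
Cumulative share of junctions (%) against the bases lost from the bait end (bp; below 0 the alignment runs past the break) for each chr8-bait library, with dotted lines for libraries of under 1000 junctions. The median loss is 45 and 41 bp in the larger AphART558 libraries, 35 and 32 bp in the larger ART558 libraries, and 13 bp in DMSO.

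Prey sites that recurred in many libraries were examined because they enter the share on other chromosomes. Besides the target itself, the genome holds 1245 matches to the guide with up to 5 mismatches, of which 5 have 3 mismatches, 92 have 4 mismatches and 1148 have 5. Over the 12 libraries of this bait, 16 sites held at least 10 junctions from at least 3 libraries. They were chosen with these libraries included, so their values are descriptions. The largest lies in *Lrmda* at chr14:22765286-22767788 and contains a match to the guide on the minus strand, chr14:22766302-22766321, with 4 mismatches (G1A, T2G, C3T and T20A, counted from 1 at the 5′ end of the guide with the guide's base first) and the PAM GGG. The second match, with 5 mismatches (G1A, T2C, C3A, T11A and C13T), lies on the minus strand at chr6:32876436-32876455 in *Chchd3*. Both are shown with the mismatched bases in capitals.
Lrmda match: AGTgaccatatgctaatctAggg
Chchd3 match: ACAgaccataAgTtaatcttggg

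The sites around the *Lrmda* match held 20, 27.6 and 0 junctions per 1000 on other chromosomes in ART558 and 5.90, 5.04 and 9.59 in AphART558. The larger libraries did not overlap, and ART558 replicate 3 had 0 of 28 (95% Wilson upper bound 121). In DMSO the sites held 66.1 to 73.2 and in Aph 32.4 to 46.0 per 1000. The share of junctions on other chromosomes itself differed between the treatments, so the sites were also counted per 1000 of all junctions. They then held 6.33 and 12.003 in the larger ART558 libraries and 2.11, 2.70 and 5.40 in AphART558, again without overlap. DMSO held 4.29 to 5.14 and Aph 5.9986 to 7.86 on this scale, so that the order of DMSO and Aph turned.

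A group of sites with shared 20-base stretches lies on chromosomes 2, 9, 12 and 14, near *Gm10800*, *Gm10801* and *Gm21738*. A part of the chromosome 2 site, chr2:98666681-98666740 on the plus strand, is shown in capitals because its 20-base words are found again at the sites of other chromosomes. These sites held 16.0, 17.4 and 0 junctions per 1000 in ART558 and 17.7, 40.97 and 51 in AphART558, with 2.81 to 6.07 in DMSO and 7.42 to 18.4 in Aph. The high values were those of AphART558 replicates 2 and 3, and AphART558 replicate 1 of the shared run did not stand out. Reads of such repeats cannot be placed at 1 copy with certainty.
chromosome 2 repeat: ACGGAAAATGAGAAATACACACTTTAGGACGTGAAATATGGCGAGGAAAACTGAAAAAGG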

How the data were processed

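LAM-HTGTS was done in 12 libraries of the chromosome 8 bait (3 per treatment) and, for ART558 and AphART558, in 6 libraries each of the chromosome 6 and 12 baits. Per the study's methods, the authors trimmed and demultiplexed the reads, aligned them to GRCm38/mm10 (the build also in the submitters' processing notes) with Bowtie2 and filtered them in the HTGTS pipeline. The deposited files give 1 junction per line, not normalized, with genomic coordinates and where its 2 ends align within the read. For chromosome 6, 1 ART558 file breaks off in its last line, which left 5075 junctions.

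Only assembled nuclear chromosomes were used, and repeated junctions were kept. Python 3.11.15, NumPy 2.4.6, pandas 2.3.3, SciPy 1.17.1 and Matplotlib 3.10.9 were used, with gene positions from GENCODE M21. RDC positions and classes were taken from a list in the study's supplement that holds the 107 RDCs with a CTR or TTR class and a centre for each; other RDCs of the study were not used here. Windows were 1 Mb, and 1500 random windows outside RDCs were drawn with seed 7. Densities use other chromosomes, and micro-homology, insertions and bait length use junctions more than 1 Mb from the break. Micro-homology is the overlap of bait and prey in the read, and the aligned bait includes it. The share with at most 5 bp of bait loss includes alignments that run past the break. Wilson intervals of 95% cover counting error only: the reads carry no molecular identifiers and may share a template.

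Libraries were grouped by their labels and compared by two-sided exact permutation tests of library means, within baits for 3 baits (15 results, Benjamini-Hochberg adjusted) and within inhibitor levels for the comparison with DMSO and Aph (25 results), whose null is no aphidicolin difference at either level. The tests were tested on simulated data. Named genes were RDC genes off chromosome 8 with the 10 highest AphART558 counts, and those with the 6 highest and 6 lowest density ratios (0.5 junction added) among RDCs with at least 10 junctions in the larger libraries. *Ctnna2* and *Nrg3*, which the study discusses, and *Erbb4* and *Auts2* from its list of RDCs were added. Some genes that this rule names are not reported here. The libraries, lists and tests were chosen with earlier results of these data known. The 5 measures of bait-side junctions, short deletions and bait-chromosome RDCs were added after seeing the data. Alternatives were other libraries, windows, totals and random windows, summed junctions, each position counted once, junctions within 1 Mb or in RDC windows, each library left out and replicate numbers as blocks, and, added after seeing the data, the shared sequencing run, bait length without micro-homology and recurrent sites left out. Repli-seq, GRO-seq and the other libraries were not used here.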

Additional observations from a re-analysis of the deposited data

Results flagged for a closer look

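The aphidicolin difference in the share of junctions with at most 5 bp of bait loss stood out between cells with and without ART558 before adjustment, not after it. It was 2.01 percentage points with ART558 and -9.69 without it, a difference between the 2 of 11.7 (exact permutation within inhibitor levels, p = 0.035, adjusted p = 0.438 over 25 results, n = 3 libraries per group). The shares were 11.3%, 9.74% and 3.57% in ART558, 16.4%, 6.77% and 7.44% in AphART558, 30.9%, 28.4% and 29.6% in DMSO and 20.7%, 19.6% and 19.5% in Aph. Without the libraries of under 1000 junctions the difference was 6.27 (exact permutation p = 0.217). The DMSO and Aph libraries lie on a run of their own, so that in both results of this kind ART558 and the run cannot be told apart. The permutation shuffles aphidicolin labels within each inhibitor level, so its null is no aphidicolin difference at either level, and its p does not by itself test whether the 2 differences are unequal.

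Inverted junctions beyond the break, within 1 Mb, differed with aphidicolin by 0.304 percentage points in ART558-treated cells and by -1.08 without ART558, and the 2 differed by 1.39 (exact permutation p = 0.01, adjusted p = 0.25, n = 3 libraries per group). These junctions numbered 9, 7 and 0 in the ART558 libraries and 7, 43 and 19 in AphART558, and made up 5.77% of DMSO and 4.69% of Aph junctions on average. With 0.20% on average in ART558, the share had no room to fall by as much as without it, so the difference between percentage-point differences is limited by this floor. In the larger libraries the 2 differed by 1.17 (exact permutation p = 0.0333).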

How the results depend on the processing

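At this bait alone no difference between AphART558 and ART558 could pass a threshold of 0.05. Among 179 recalculations of 23 results that left out no single library, 154 kept the direction within the limits set, 24 turned it and 1 count moved. Without the libraries of under 1000 junctions the difference (AphART558 minus ART558) was 0.255 JPTM for CTR RDCs, 0.68 for the log2 ratio of CTR to non-RDC density, 0.720 points for insertions, -6.96 bp for bait length and -3.42 points for bait loss of at most 5 bp. Summing junctions over libraries gave 0.221, 0.60, 0.880, -6.57 and -2.77 for the same measures. Within the shared run the log2 ratio was 0.37, insertions 1.16 and the share near start sites -2.12. Counting each position once turned the share in genes to -0.227. With 0.5 Mb windows CTR density was 0.727 and its log2 ratio 1.03. Per 1000 of all junctions CTR and non-RDC densities were 0.00475 and 0.0614, a second set of random windows gave 0.0841 for non-RDC density, and all 1 Mb bins without RDCs gave 0.0171. Among junctions within 1 Mb, direct joining was -4.93, mean micro-homology 0.0188 and loss of at most 5 bp -3.43, and in RDC windows mean micro-homology was 0.250. With at least 5 junctions, a limit also reached mainly through AphART558, 44 of 60 RDCs were higher. Leaving out the recurrent sites or the micro-homology of the bait turned no direction. Apart from the fewer libraries, windows or junctions in these settings, the cause was not tested.

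With 1 library left out, 11 of 138 values at this bait turned. Without ART558 replicate 3 the values were 0.355 for CTR density, 0.92 for its log2 ratio, 1.54 for insertions, -4.69 for bait length and -0.305 for bait loss of at most 5 bp. Without AphART558 replicate 1 bait length was -0.779 and loss of at most 5 bp -1.10, and the values that kept their direction were 22.9 points for other chromosomes, -25.9 within 1 Mb, -0.824 for CTR, 0.225 for TTR and -0.0134 for non-RDC density, 3.02 for direct joining, -3.98, 6.29 and -4.14 for 1, 2 and 5 to 10 bp micro-homology, -1.30 for insertions, 5.97 for bait-side inverted junctions, 1205 bp for their distance and -20.5 for deletions to 200 bp. Without AphART558 replicate 2 the log2 ratio was 0.14, and without AphART558 replicate 3 insertions were 0.455. Without ART558 replicate 2 the log2 TTR ratio was -0.19 and the share in genes -0.0507. Over all libraries left out, the ranges were -1.27 to 0.355 for CTR density, -0.65 to 0.92 for its log2 ratio, -0.19 to 1.54 for the log2 TTR ratio, -1.60 to 1.54 for insertions, -4.69 to 4.73 for bait length, -1.10 to 3.74 for loss of at most 5 bp and -0.0507 to 1.77 for the share in genes. The other ranges included 10.98 to 22.9 points for other chromosomes, 0.119 to 0.436 for TTR density, and -6.60 to -1.31 and -6.26 to -0.343 points for 1 bp and 5 to 10 bp micro-homology. The added measures kept their direction, at 5.97 to 7.19 points for bait-side inverted junctions, 1123 to 1294.5 bp for their distance, 4.14 to 4.85 points beyond 5 kb, -20.5 to -14.1 points for deletions to 200 bp and 10.97 to 14.8 points for bait-chromosome RDCs. The RDCs with a higher mean density numbered 57 to 82.

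Over the 3 baits, leaving out the smaller libraries gave 0.201 for CTR density, 0.57 for its log2 ratio (exact permutation p = 0.00417), 0.960 for 5 to 10 bp micro-homology, -1.36 for bait length and -0.997 for loss of at most 5 bp. The p-values of these alternative settings were not adjusted. Per 1000 of all junctions CTR density was 0.0931 and non-RDC density 0.0447. With each position counted once, direct joining was 0.397, the share on other chromosomes 6.65 (exact permutation p = 0.159) and that within 1 Mb -8.75 (exact permutation p = 0.0755), both then also above 0.05 before adjustment. The unadjusted p of the share on other chromosomes exceeded 0.05 when any 1 of 8 libraries was left out, at 8.92 to 10.8 points (over all 18 libraries left out in turn, 8.92 to 14.0). Ranges with 1 library left out were -0.307 to 0.235 for CTR density and 0.13 to 0.65 for its log2 ratio (the highest, without ART558 replicate 3 at chromosome 8, had exact permutation p = 0.0035 and 0.003), -0.11 to 0.46 for the log2 TTR ratio, -0.0125 to 0.000264 for non-RDC density, -1.46 to 0.248 for direct joining, -2.28 to -0.520 for 1 bp micro-homology (exact permutation p = 0.0448 without ART558 replicate 2 at chromosome 8), 0.647 to 3.19 for 2 bp, -0.966 to 1.005 for 5 to 10 bp, -0.512 to 2.55 for insertions, -0.601 to 2.54 for bait length and -0.224 to 2.13 for loss of at most 5 bp. In the comparison of the aphidicolin difference with and without ART558, leaving out the smaller libraries gave 0.0179 for non-RDC density, 0.281 for direct joining, 0.668 for insertions, -1.77 for bait length and 6.27 for loss of at most 5 bp.

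The deviations of same-numbered replicates over RDCs had correlations of r = 0.03, -0.07 and 0.01. With few junctions per RDC, these values cannot show that such replicates are unrelated. ART558 replicate 1 and AphART558 replicate 1 shared 14 identical junctions and a sequencing run. With the replicate block the values were those without it, 16.5 points for the share on other chromosomes for example (exact permutation p = 0.25, the smallest for 3 pairs), apart from 0.77 for the log2 TTR ratio, which lost a pair. The block changed no call, and every chromosome 8 result with ART558 replicate 3 rests on at most 133 junctions there.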
